A study of Homo sapiens with 6 samples.

Results

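The genes described here are 51 genes of the short arm of human chromosome 3, from SEMA3F to RPP14 in the cytogenetic bands 3p21 to 3p14, out of 27914 genes in the table. They were chosen by their measured values: along this stretch the TPM of neighbouring genes was lower in α-/-;βin cells than in controls. TPM is an RNA level per transcript length, scaled to the same total in each library. The lower level of these genes is therefore the reason for their choice, not a result. All 51 were in the table. A mean of at least 1 TPM over the 6 libraries was reached by 48 of them, and the other 3 (STAB1, CHDH and IL17RB) were too low to be compared.

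The libraries came from MCF10A, a human mammary epithelial line that is immortalised but does not form tumours, and each group had 3 of them. Controls, named SCRin, had a wild-type genotype. The other group had the genotype α-/-;βin, in which α and β were read from the series title as the α and β PI5P4K enzymes (genes PIP4K2A and PIP4K2B), lipid kinases that act on PI-5-P. Cells of both groups had received doxycycline for 3 days, and each value below compares α-/-;βin cells with SCRin controls. The labels do not expand SCR or in, do not say whether the α-/- cells were a single clone, and do not say whether replicates were separate cultures, so the p-values rest on a spread between libraries that may be technical only. DNA was not analysed here, so the number of gene copies is not known from these data.

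The short arm of chromosome 3 is known for its losses in epithelial tumours, among them carcinomas of lung, kidney and breast, and it carries several tumour suppressor genes close together. BAP1 and PBRM1 in 3p21.1 encode chromatin regulators that are mutated in tumours, and a gene-dense cluster in 3p21.3 holds candidate suppressors such as SEMA3B, TUSC2, NPRL2 and HYAL2. A diploid cell that loses a copy of such a region keeps the other, and if each copy gives the same amount of RNA as before, the level falls to 50% of its former value. That value is used below as a yardstick. Many genes depart from it, because RNA levels are also set by regulation.

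The targeted genes were lower in α-/-;βin libraries. PIP4K2A, which encodes the α enzyme, measured 19.8, 20.2 and 21.7 TPM in controls and 4.09, 4.16 and 4.35 TPM in α-/-;βin libraries, and PIP4K2B measured 20.8, 23.1 and 21.4 TPM against 8.20, 8.69 and 11.6 TPM; both were called lower, PIP4K2B not without control replicate 3. PIP4K2C, the third PI5P4K gene, measured 45.9, 37.4 and 45.9 TPM against 39.9, 28.6 and 33.4 TPM and was not called. All 10 epithelial markers examined, such as keratins 5 and 17, reached 1 TPM, with a summed level of 3222 to 5989 TPM in controls and 3373 to 5492 TPM in α-/-;βin libraries. Among them EPCAM, an epithelial adhesion protein, was higher, at 9.75, 10.9 and 9.40 TPM against 48.5, 55.4 and 44.6 TPM, and was the 1 marker called. Among the markers that reached 1 TPM, groups also did not overlap, without a call, for the epithelial markers KRT5 (576, 590.3 and 837 TPM against 841, 1053 and 988 TPM) and TP63 (18.9, 13.1 and 16.2 TPM against 29.6, 25.96 and 25.1 TPM) and for the leukocyte marker CD14 (5.998, 4.64 and 2.64 TPM against 9.48, 7.83 and 7.05 TPM), all higher in α-/-;βin libraries. The part of these markers in the results below was not tested. Of 6 fibroblast markers, 5 leukocyte markers and 4 endothelial markers, 2, 2 and 0 reached 1 TPM. Their summed levels were 1.96 to 6.32 against 2.73 to 6.08 TPM, 42.9 to 47.5 against 43.5 to 45.7 TPM, and 0.533 to 1.81 against 0.908 to 1.17 TPM, in controls against α-/-;βin libraries. Most of the leukocyte sum was CD68 (41.1, 38.3 and 44.8 TPM against 36.2, 35.6 and 38.7 TPM). The defining markers COL3A1 and PTPRC were listed at 0 in every library. The read depth behind a TPM value is unknown.

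As a group, the members stood at a little over 50% of control. In bulk RNA, fewer cells that express a gene and less RNA per cell cannot be told apart. The median over the 48 measured members was 53.3% of control (quartiles 47.0% and 57.4%), against a median of 98.8% over all 12096 genes that reached that mean. A band of 40% to 60% of control held 34 of the 48, which was the position of 4.17% of all 12096 genes, while 6 members lay lower and 8 higher. The members' summed level was 2193 to 2282 TPM in the control libraries and 1059 to 1102 TPM in the α-/-;βin libraries. Each α-/-;βin library showed the same picture by itself, with a median member at 51.1%, 51.3% and 54.3% of the control mean in replicates 1, 2 and 3 and 47 of 48 members below the control mean in each. The control libraries stood at 93.3%, 101.8% and 101.7% in the same measure.

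In the limma fit over all 12096 genes, on log2(TPM + 1) with p-values adjusted over all of them, 27 of the 48 members were called lower and 0 higher. Calls in the same direction made up 1.83% of all tested genes, and calls of genes that were higher made up 0.364%. The groups did not overlap for 43 measured members that were lower, which held for 11.4% of all tested genes, and for 1 that was higher, RPP14, which held for 5.64%. These counts, and those given below for members grouped by role, follow from how the members were chosen and carry no evidence of their own. The median log2 change was -0.83 over the members and -0.01 over all tested genes. Of 35 members with at least 10 TPM in controls 26 were called, and of 13 members below that level 1 was. The count of calls was smaller without single libraries, with 9 members called without control replicate 3, 12 without α-/-;βin replicate 3 and 14 without α-/-;βin replicate 1, while 47 of the 48 members lay below 0 in each of these fits.

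**Figure D1:**
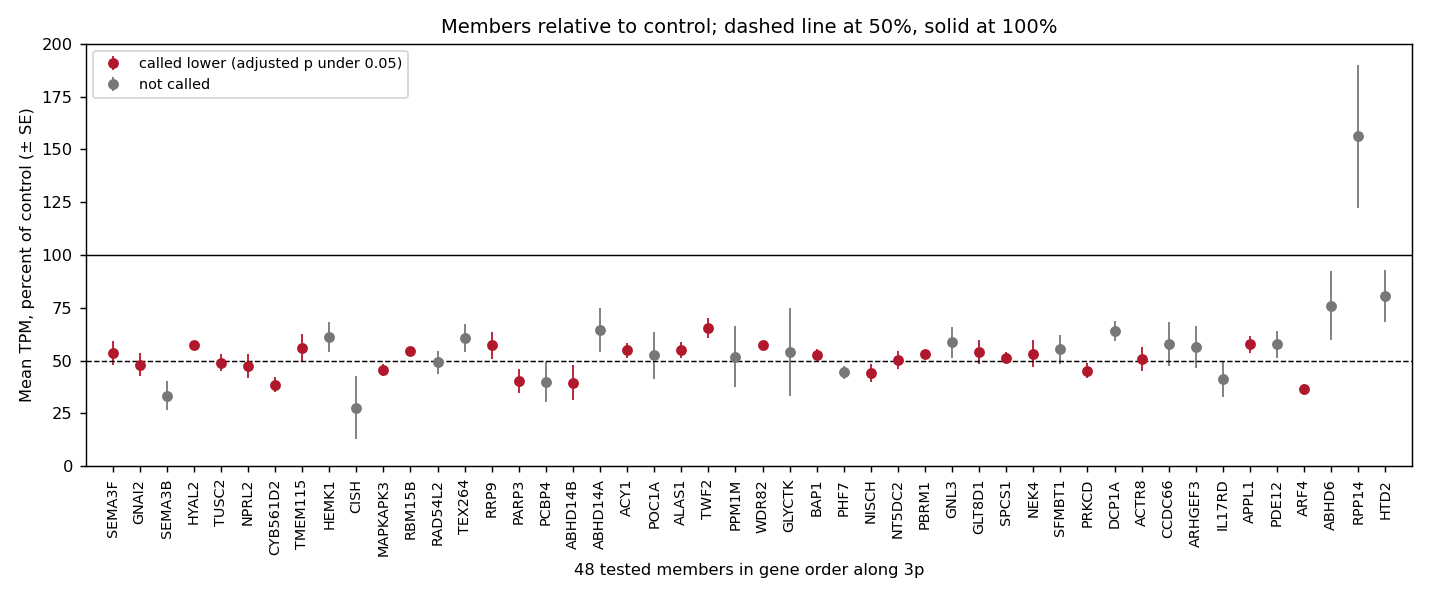
Mean TPM of the 48 measured members in α-/-;βin cells as a percentage of the control mean (points, with the SE propagated from 3 libraries per group), in gene order along 3p. Most points lie close to the dashed line at 50%, and RPP14 at 156% is the only point above the line at 100%.

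The candidate tumour suppressors of the 3p21.3 cluster were lower in every α-/-;βin library than in any control, for 6 of 6 members (median 48.2% of control, range 33.3% to 57.1%, 5 of 6 called lower). Of all tested genes, 11.4% were lower without overlap and 1.83% were called lower, shares that stand beside the counts by role below as well. SEMA3F, a secreted semaphorin that repels growing axons and blood vessels, measured 34.1, 27.2 and 32.2 TPM in controls and 18.6, 13.98 and 17.4 TPM in α-/-;βin cells, or 53.4% ± 5.62 of control (ratio of means ± SE, n = 3 per group, as in all such values below). Its relative SEMA3B was expressed at a low level, 2.13, 3.63 and 2.56 TPM against 0.947, 0.708 and 1.12 TPM (33.3% ± 6.87). Both semaphorins had groups that did not overlap, although SEMA3B was low in all. HYAL2, a membrane-anchored hyaluronidase, measured 27.6, 27.3 and 28.03 TPM in controls and 15.01, 16.8 and 15.5 TPM in α-/-;βin cells (57.1% ± 2.04). TUSC2, a mitochondrial protein also called FUS1, measured 19.4, 17.1 and 16.996 TPM against 8.47, 7.84 and 9.91 TPM (49.02% ± 4.04). HYAL2 varied little between libraries and stayed above 50% even in the most extreme pairing of libraries (53.5% to 61.8%), whereas TUSC2 bracketed it.

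NPRL2, a subunit of the GATOR1 complex that restrains mTORC1 when amino acids are scarce, measured 10.1, 13.4 and 10.2 TPM in controls and 4.55, 5.78 and 5.66 TPM in α-/-;βin cells (47.5% ± 5.76). CYB561D2, a cytochrome b561 family protein also known as 101F6, measured 24.3, 24.4 and 23.3 TPM against 9.97, 10.2 and 7.56 TPM (38.5% ± 3.59). The starts of NPRL2 and CYB561D2 lie back to back, and both were lower in every α-/-;βin library than in any control; whether their ratios differ was not tested.

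BAP1, a nuclear deubiquitinase that removes ubiquitin from histone H2A, measured 34.8, 40.4 and 33.96 TPM in controls and 19.3, 19.1 and 19.2 TPM in α-/-;βin cells (52.7% ± 2.96). Among the 8 tumour suppressor members it had the closest agreement between α-/-;βin libraries. PBRM1, the polybromo subunit of the PBAF chromatin remodeller, measured 27.4, 27.5 and 26.5 TPM against 15.5, 13.7 and 13.8 TPM (52.9% ± 2.20). The lowest control library of each gene stayed well above the highest α-/-;βin library. BAP1, PBRM1 and CYB561D2 were among 9 members called lower in all 14 alternative fits as well, with ARF4, MAPKAPK3, PRKCD, RBM15B, SPCS1 and WDR82. Those fits used the same libraries from which the members were chosen, so this count carries no evidence of its own either.

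**Figure D2:**
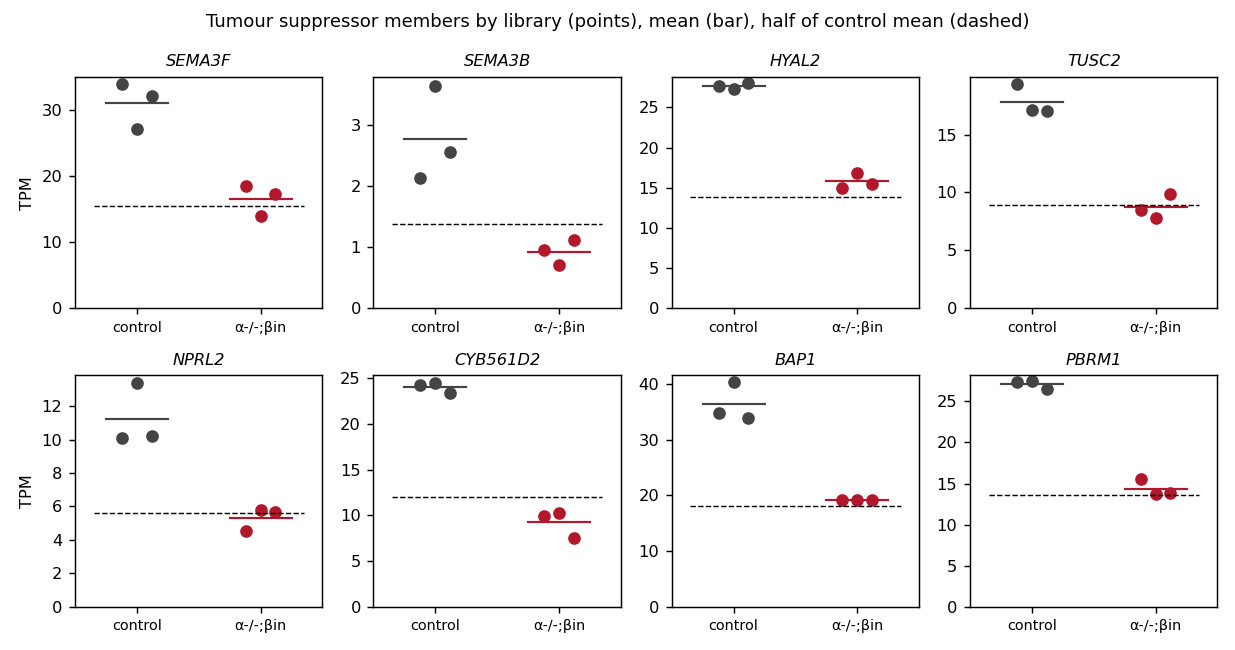
TPM of the 8 tumour suppressor members in each library (points) with the group mean (bar), for 3 control and 3 α-/-;βin libraries; the dashed line marks 50% of the control mean. In every panel the groups are apart. The α-/-;βin points of CYB561D2 and SEMA3B all lie below the dashed line, and those of HYAL2, BAP1 and PBRM1 all lie above it.

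Bases before the starts of 3p21.3 cluster genes, and between a pair of back-to-back starts farther along the segment (CHDH and IL17RB, both under the filter), are shown to set starts in the lowered cluster beside those of members that were hardly expressed. Of the 51 members, 46 matched RefSeq promoter windows (250 bases before to 50 after a start, GRCh38.p14, a build other than the hg19 of the deposited data). BAP1, SFMBT1, PHF7, SPCS1 and ARF4 did not match. Close starts on opposite strands, 6 to 458 bases apart, were found for 6 member pairs, among them PBRM1 with GNL3 (6 bases between the starts), NPRL2 with CYB561D2 (86), CISH with MAPKAPK3 (102) and CHDH with IL17RB (148). The sequences below are the bases between 2 such starts, read from the + strand, and the 100 bases before the starts of HYAL2 and TUSC2, read from the - strand that both genes use, and none of them lies within an annotated RefSeq gene. Capitals mark matches on either strand to 5 motifs: GGGCGG for the GC box, CCAAT for the box of that name, TATAAA for the TATA box, CCGGAAG for the ETS core and GGAATG for the TEAD core, none of which contains another.
HYAL2, chr3:50322746-50322845, - strand: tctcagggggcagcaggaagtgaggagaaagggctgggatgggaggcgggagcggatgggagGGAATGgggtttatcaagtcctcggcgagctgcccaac
TUSC2, chr3:50328224-50328323, - strand: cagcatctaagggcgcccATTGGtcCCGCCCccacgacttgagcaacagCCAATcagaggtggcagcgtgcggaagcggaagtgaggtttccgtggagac
NPRL2 and CYB561D2, chr3:50350776-50350861, + strand: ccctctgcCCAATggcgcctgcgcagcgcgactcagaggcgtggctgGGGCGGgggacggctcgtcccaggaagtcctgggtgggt
CHDH and IL17RB, chr3:53846420-53846567, + strand: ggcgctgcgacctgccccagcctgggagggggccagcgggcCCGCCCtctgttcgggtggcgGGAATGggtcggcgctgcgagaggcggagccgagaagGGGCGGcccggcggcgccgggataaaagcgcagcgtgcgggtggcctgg

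The starts differ in the motifs they hold. The 86 bases shared by NPRL2 and CYB561D2 have a CCAAT box and a GC box, TUSC2 has CCAAT boxes on both strands and a GC box, and HYAL2 has a single TEAD core. The bases between CHDH and IL17RB have GC boxes on both strands and a TEAD core, motifs also found before starts of the cluster. In the windows of all 46 matched members, a GC box was present for 80.4%, against 48.3% of all 27305 genes with windows and 78.04% of the other 9283 expressed genes. The shares for a CCAAT box were 28.3%, 39.7% and 43.8%, for a TATA box 4.35%, 13.99% and 8.07%, for an ETS core 23.9%, 12.2% and 23.8%, and for a TEAD core 21.7%, 16.7% and 14.9%. The median GC content was 67.7% for members and 64.8% for the other expressed genes. Except for the CCAAT box, the members' shares differed from those of other expressed genes by under 10 percentage points; a match is a description of letters and not of a bound site.

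The remaining chromatin and DNA repair members were lower in every α-/-;βin library than in any control for 6 of 6 genes, with a median of 49.9% of control (range 40.1% to 57.3%). WDR82, a subunit of the SET1 histone methyltransferase complexes, measured 81.9, 74.999 and 74.4 TPM in controls and 43.1, 44.9 and 44.6 TPM in α-/-;βin cells (57.3% ± 1.95). ACTR8, an actin-related subunit of the INO80 remodeller, measured 21.6, 16.9 and 17.01 TPM against 10.1, 7.95 and 10.1 TPM (50.6% ± 5.76). WDR82 stayed above 50% in every pairing of libraries (52.6% to 60.4%) and ACTR8 bracketed it. PARP3, an ADP-ribosyltransferase of the response to DNA breaks, measured 9.65, 7.21 and 8.98 TPM in controls and 3.80, 2.66 and 3.92 TPM in α-/-;βin cells (40.1% ± 5.75). SFMBT1, an MBT-domain histone reader, RAD54L2, a SNF2-family ATPase, and PHF7, a PHD-finger protein, stood at 55.3% ± 6.88, 49.1% ± 5.50 and 44.4% ± 3.03.

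Members that act on RNA or in ribosome assembly had groups that did not overlap for 7 of 7 genes, 6 of them lower and RPP14 higher (median 57.7%, range 39.7% to 156%). RBM15B, an adaptor of the complex that places N6-methyladenosine on RNA, measured 23.4, 22.8 and 23.1 TPM in controls and 13.3, 11.8 and 12.8 TPM in α-/-;βin cells (54.6% ± 1.96). GNL3, the nucleolar GTPase nucleostemin, measured 152, 218 and 179.7 TPM against 95.5, 123 and 104 TPM (58.6% ± 7.50). Control libraries of GNL3 were far more spread out than those of RBM15B, which were nearly equal. DCP1A, the activator of the mRNA decapping enzyme, measured 10.98, 11.9 and 11.2 TPM in controls and 8.20, 7.09 and 6.45 TPM in α-/-;βin cells (63.9% ± 4.75), so every pairing of libraries stayed above 50% (54.3% to 74.7%). RRP9, a protein of the U3 small nucleolar ribonucleoprotein, PDE12, a mitochondrial poly(A) exonuclease, and PCBP4, a poly(C)-binding protein, stood at 57.1% ± 6.54, 57.7% ± 6.43 and 39.7% ± 9.47.

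Signalling genes formed the largest set, with 13 members, 11 of them measured, 7 called lower and a median of 47.9% of control (range 27.6% to 65.4%). GNAI2, an inhibitory G protein α subunit, measured 178, 149.7 and 189 TPM in controls and 79.6, 71.2 and 96.6 TPM in α-/-;βin cells (47.9% ± 5.42). MAPKAPK3, a kinase activated by p38, measured 71.4, 86.5 and 83.9 TPM against 35.7, 35.3 and 39.1 TPM (45.6% ± 3.02). PRKCD, the diacylglycerol-activated protein kinase C δ, measured 32.5, 29.3 and 30.3 TPM in controls and 15.9, 12.6 and 13.1 TPM in α-/-;βin cells (45.2% ± 3.67). For these 3 genes the groups did not overlap. NISCH, the imidazoline receptor nischarin that binds integrin α5, measured 10.3, 12.9 and 12.96 TPM against 4.66, 5.69 and 5.57 TPM (44.04% ± 4.21). APPL1, an endosomal adaptor bound by RAB5, measured 35.4, 44.4 and 38.1 TPM in controls and 23.3, 21.98 and 22.9 TPM in α-/-;βin cells (57.8% ± 4.06). NEK4, a NIMA-related kinase, stood at 53.3% ± 6.32 and ARHGEF3, an exchange factor for RHOA, at 56.3% ± 10.1.

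TWF2, the actin-monomer binding protein twinfilin 2, was the highest of the 11 measured signalling members relative to control, with 54.003, 52.6 and 59.001 TPM in controls and 39.5, 31.8 and 37.1 TPM in α-/-;βin cells (65.4% ± 4.71). CISH, a STAT5-induced inhibitor of cytokine signalling, was the lowest of all measured members, with 1.49, 1.74 and 3.35 TPM against 1.05, 0.0839 and 0.680 TPM (27.6% ± 14.8). The CISH groups did not overlap, but its α-/-;βin libraries had the largest coefficient of variation of the 48 measured members (80.7%). IL17RD, an inhibitor of fibroblast growth factor signalling in the interleukin-17 receptor family, measured 2.14, 2.16 and 2.05 TPM in controls and 1.22, 0.662 and 0.735 TPM in α-/-;βin cells (41.2% ± 8.27). PPM1M, a metal-dependent phosphatase, had overlapping groups at 51.9% ± 14.3. STAB1, a scavenger receptor of macrophages and endothelium, was listed at 0 in all 6 libraries, and IL17RB, the receptor of interleukin-25, was at 0, 0.0648 and 0.0730 TPM in controls and 0.386, 0.141 and 0.157 TPM in α-/-;βin libraries. The IL17RB values were higher in every α-/-;βin library, at levels below the filter.

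The 5 members of the secretory pathway and endoplasmic reticulum did not overlap between the groups (median 53.8%, range 36.4% to 60.6%). ARF4, a small GTPase of Golgi and endosomal traffic, was the most abundant of all members. It measured 728, 607 and 694 TPM in controls and 268, 228 and 242 TPM in α-/-;βin cells (36.4% ± 2.60), and every pairing of libraries lay below 50% (31.3% to 44.1%). ARF4 overlaps PDE12 in the RefSeq annotation. SPCS1, a subunit of the signal peptidase, measured 163, 191 and 185 TPM against 91.3, 89.3 and 95.7 TPM (51.3% ± 2.58). TMEM115, a Golgi membrane protein encoded beside CYB561D2, stood at 55.98% ± 6.77, GLT8D1, a glycosyltransferase-domain protein, at 53.8% ± 5.68, and TEX264, a receptor for autophagy of the endoplasmic reticulum, at 60.6% ± 6.68.

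Of 9 metabolic enzymes, 8 were measured, with a median of 54.9% of control (range 39.4% to 80.7%) and 4 called lower. ALAS1, the rate-limiting enzyme of haem synthesis in most tissues, measured 32.4, 38.04 and 33.97 TPM in controls and 18.1, 20.9 and 18.4 TPM in α-/-;βin cells (54.99% ± 3.67). ACY1, which deacylates N-acetylated amino acids, measured 28.3, 32.5 and 29.99 TPM against 15.5, 18.2 and 16.1 TPM (54.8% ± 3.44). NT5DC2, a protein of the 5′-nucleotidase family, measured 68.7, 72.6 and 80.6 TPM in controls and 34.1, 34.997 and 42.6 TPM in α-/-;βin cells (50.3% ± 4.36). The groups of these 3 enzymes did not overlap. The neighbours ABHD14A and ABHD14B, both of the α/β-hydrolase family, stood at 64.6% ± 10.4 and 39.4% ± 8.30, and a readthrough transcript of ABHD14A with ACY1 that the table also lists was at 0 in every library; how reads of overlapping transcripts were assigned is not known. GLYCTK, glycerate kinase, had overlapping groups at 54.1% ± 20.98, with 1 control library at 5.78 TPM and the others at 1.72 and 2.39 TPM. CHDH, the mitochondrial choline dehydrogenase, stayed under the filter at 0.110, 0.309 and 0.413 TPM in controls and 0.312, 0.748 and 0.419 TPM in α-/-;βin cells.

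The other 3 members were POC1A and CCDC66, proteins of centrioles and cilia, and HEMK1, a methyltransferase of mitochondrial translation release factors. They stood at 52.6% ± 11.1, 57.9% ± 10.3 and 61.2% ± 7.23 of control, none was called, and for each the groups did not overlap.

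At the centromeric end lie ABHD6, RPP14 and HTD2, which had the highest percentages of control of the 48 measured members. ABHD6, a monoacylglycerol lipase that degrades the endocannabinoid 2-arachidonoylglycerol, measured 3.59, 4.35 and 5.64 TPM in controls and 2.41, 4.43 and 3.48 TPM in α-/-;βin cells (76.02% ± 16.3), and the groups overlapped. RPP14, a subunit of RNase P, measured 6.999, 6.65 and 3.23 TPM against 8.34, 9.45 and 8.61 TPM (156% ± 33.9), the reverse of the direction in the other 47 measured members. HTD2, a mitochondrial 3-hydroxyacyl-thioester dehydratase of fatty acid synthesis, measured 13.4, 14.3 and 17.2 TPM in controls and 14.1, 8.93 and 13.2 TPM in α-/-;βin cells (80.7% ± 12.4). RPP14 and HTD2 are read from the same locus and share a start and an end in the RefSeq annotation, so how reads were divided between them is uncertain. Summed, a quantity chosen after the values were seen, they measured 20.4, 20.9 and 20.5 TPM in controls and 22.4, 18.4 and 21.8 TPM in α-/-;βin cells, or 101% of control. RPP14 took 15.8% to 34.4% of this sum in controls and 37.2% to 51.4% in α-/-;βin libraries. The groups overlapped in this sum, so the label of a lowered segment does not hold for this end by these values.

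The genes on both sides stood near control levels. RBM5, an RNA-binding splicing regulator and the first gene before SEMA3F, measured 21.6, 33.04 and 34.1 TPM in controls and 26.2, 34.01 and 32.9 TPM in α-/-;βin cells (105% ± 16.4). PXK, a PX-domain protein and the first gene after RPP14, measured 11.5, 15.8 and 11.2 TPM against 11.5, 18.7 and 13.98 TPM (115% ± 21.26). Just inside these limits, SEMA3F stood at 53.4% and RPP14 at 156%. The 10 measured genes before SEMA3F had a median of 102.4% of control (range 78.05% to 167%) and the 10 after RPP14 a median of 107% (range 86.01% to 174%), with 0 calls in either set at an adjusted p under 0.05. FHIT, a tumour suppressor at a fragile site of 3p14.2, was among the latter (named after its values were known) and had 0.805, 8.83 and 5.77 TPM in controls and 3.02, 10.8 and 3.82 TPM in α-/-;βin cells. Its libraries overlapped and varied widely within each group. The rest of chromosome 3 had a median log2 change of -0.02 over 601 genes. Between the first and the last member lay 77 further genes that are not among the 51. Of these, 18 were measured, with a median of 57.6% of control (range 25.4% to 99.7%). The highest was ARF4-AS1, at a mean of only 1.12 TPM over all libraries. Calls of lower genes numbered 8 of the 18, against 1.83% of all tested genes, in a stretch chosen for its lower values. RASSF1, named with its values known, was among those called (49.9% ± 5.51).

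**Figure D3:**
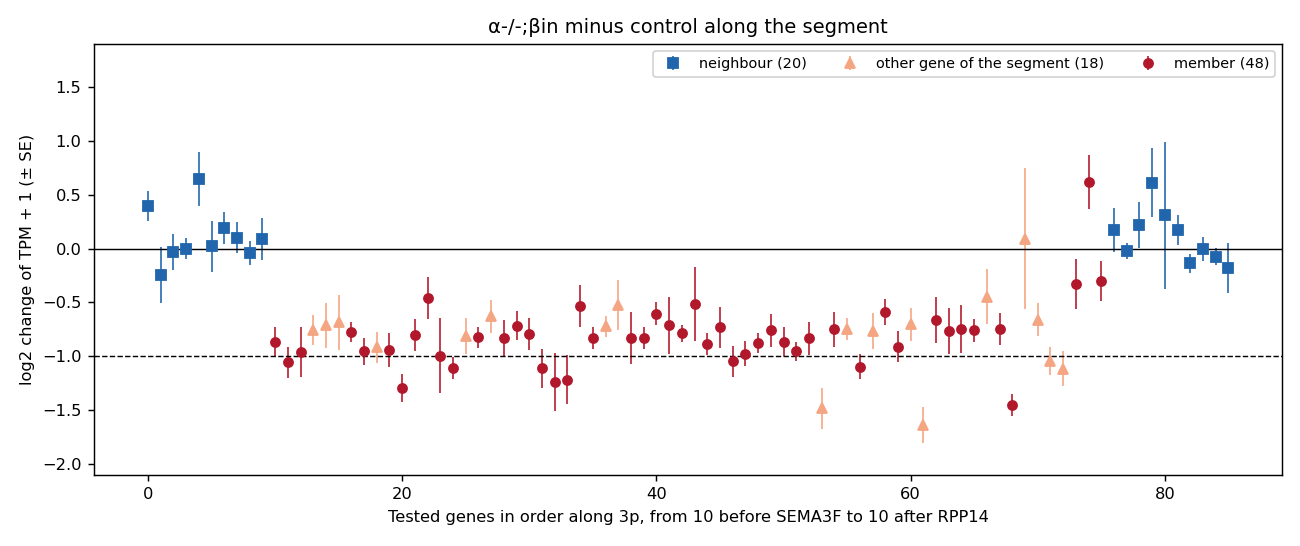
log2 change of TPM + 1 (± SE of the limma fit) in gene order. Shown are 48 members, 18 other measured genes of the segment and 20 neighbours. The dashed line marks -1, a fall of TPM + 1 to 50%. The added 1 shrinks changes of weakly expressed genes, such as CISH (-0.995 at 27.6% of control) and SEMA3B (-0.957 at 33.3%). Neighbours scatter around 0 on both sides, and all measured members except RPP14 (0.62) lie below 0, from -1.45 (ARF4) to -0.30 (HTD2).

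For most members, the spread between libraries left a fall to 50% of control within the interval of the change. On log2(TPM + 0.1), which distorts a ratio less than a pseudocount of 1, the 95% interval of the limma fit held a fall to 50% for 42 of the 48 members, lay below it for 2 (ARF4 and CYB561D2) and above it for 4 (TWF2, DCP1A, HTD2 and RPP14). Among the 42, the intervals of HEMK1 (-1.34 to 0.01), GLYCTK (-1.72 to 0.38) and ABHD6 (-1.07 to 0.26) also held no change. The interval of CISH ran from -3.80 to -0.15. For HYAL2 and WDR82 every pairing of libraries stayed above 50%, yet their intervals (-1.03 to -0.58 and -1.002 to -0.598) held it. A range of pairings is not an interval. The intervals are given as a description and were not adjusted for the number of members. The median on this scale was -0.90. Members with at least 10 TPM in controls spread over a narrower range of percentages (SD 8.39 over 35 genes) than those below it (SD 32.3 over 13, RPP14 included). RPP14 at 156% widened the latter SD. The quartiles were 48.5% and 57.1% for the 35 genes and 41.2% and 61.2% for the 13. Across the 48 genes, the correlation of the control level (log2) with the percentage of control was Pearson r = -0.09 and Spearman rho = 0.08, and that of the place along the segment with the percentage was r = 0.39 and rho = 0.33, with RPP14 and HTD2 at the end. These genes share the same 6 libraries and are not independent. Between libraries of a group, the coefficient of variation of a member had a median of 12.3% in controls and 12.8% in α-/-;βin cells. In the RefSeq annotation 7 member pairs overlap on the genome, SPCS1 with NEK4 and GNL3 with GLT8D1 among them, and the sources used here do not say if library strand was kept, so reads of overlapping genes cannot be told apart.

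**Figure D4:**
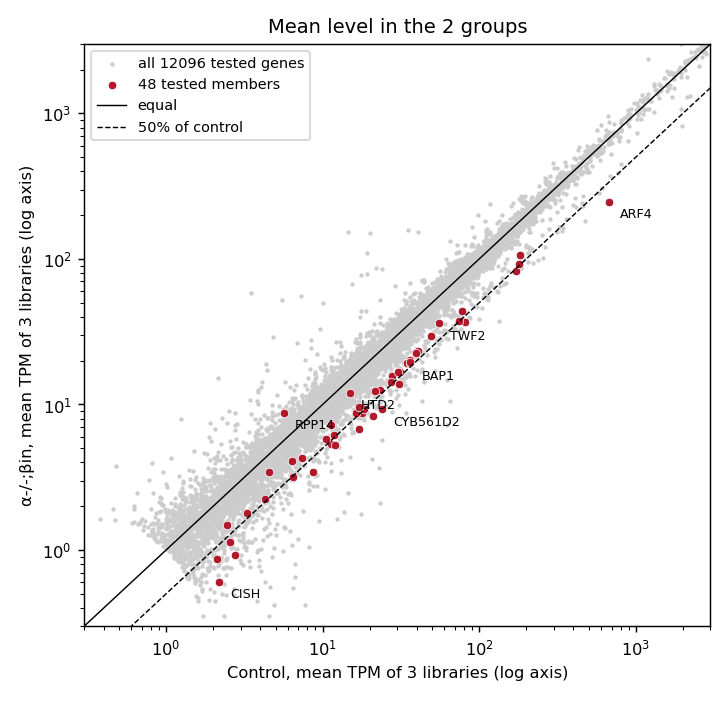
Mean TPM in control (x) and α-/-;βin (y) libraries on log axes for all 12096 tested genes (grey) and the 48 measured members (red). Most members lie near the dashed line at 50% of control. CISH near the low end (27.6%), CYB561D2 (38.5%) and ARF4 at the high end (36.4%) lie below it. HTD2 lies just under the solid line of equality and RPP14 above it.

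Several members work with the products of genes encoded elsewhere. These partners were other subunits or cofactors of a complex, partners of BAP1, semaphorin receptors, or genes of haem synthesis or the p38 pathway. They were not used to choose the members. Of 88 measured partner genes in 13 lists, 1 was called lower (1.83% of all tested genes were) and 0 were called higher. In all, 9 had an unadjusted p below 0.05. The share of all tested genes below that value was not counted, here or for the lists that follow. The median log2 change of the partners was -0.01, as over all genes. The groups did not overlap for 17 of them (19.3%), against 17.1% of all tested genes. The exception was FOXK1, a forkhead factor that recruits BAP1, with 11.2, 14.4 and 12.1 TPM in controls and 6.57, 7.36 and 6.26 TPM in α-/-;βin cells (log2 change -0.81, 95% interval -1.12 to -0.49, limma adjusted p = 0.0293). FOXK1 lies on chromosome 7 between FAM20C and CHCHD2, where 185 tested genes had a median log2 change of -0.92, and its call was lost without any of 5 libraries and without a filter on low values (adjusted p 0.00963 to 0.139 over the alternatives). Of the other 8 measured BAP1 partners, 0 passed.

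No partner of the other chromatin members passed. SMARCE1, the most abundant of 9 PBAF subunits besides PBRM1, measured 95.1 ± 6.41 TPM in controls and 96.2 ± 6.68 TPM in α-/-;βin cells (SD, n = 3; log2 change 0.02, 95% interval -0.21 to 0.24, limma adjusted p = 0.978), and the list had a median of 0.09. DPY30, of 7 SET1 complex subunits besides WDR82, measured 142 ± 11.1 TPM in controls and 156 ± 4.61 TPM in α-/-;βin cells (log2 change 0.14, 95% interval -0.07 to 0.34, limma adjusted p = 0.630). RUVBL1, an ATPase among 13 INO80 subunits besides ACTR8, measured 103 ± 7.28 TPM in controls and 105 ± 17.7 TPM in α-/-;βin cells (log2 change 0.01, 95% interval -0.31 to 0.33, limma adjusted p = 0.989). The lowest log2 changes in the 3 lists were -0.05 (SMARCC2), -0.18 (ASH2L) and -0.42 (TFPT), beside -0.87 for PBRM1, -0.79 for WDR82 and -0.91 for ACTR8. These differences were not tested. In the PBAF list PHF10 and SMARCD1, named with their values known, were higher in every α-/-;βin library without passing. Their log2 changes were 0.37 and 0.34 (limma adjusted p = 0.367 and 0.191), and the groups overlapped for the other PBAF subunits listed. NPRL3, which pairs with NPRL2 in GATOR1, measured 12.4 ± 2.95 TPM in controls and 15.7 ± 3.77 TPM in α-/-;βin cells (log2 change 0.32, 95% interval -0.23 to 0.87, limma adjusted p = 0.687).

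The partners of RNA and secretory members gave 0 calls as well. SEC11A, a catalytic subunit of the signal peptidase with SPCS1, measured 208 ± 11.2 TPM in controls and 181 ± 4.66 TPM in α-/-;βin cells (log2 change -0.20, 95% interval -0.39 to -0.01, limma adjusted p = 0.375). LSM1, of 7 decapping factors, measured 102 ± 4.42 TPM in controls and 92.8 ± 9.38 TPM in α-/-;βin cells (log2 change -0.13, 95% interval -0.37 to 0.10, limma adjusted p = 0.689). FBL, the methyltransferase fibrillarin and 1 of 7 partners of RRP9, measured 255 ± 23.4 TPM in controls and 276 ± 23.3 TPM in α-/-;βin cells (log2 change 0.11, 95% interval -0.14 to 0.36, limma adjusted p = 0.769). The 3 lists had medians of -0.06, -0.09 and 0.11. WTAP, of 6 genes of the N6-methyladenosine writer, measured 102 ± 8.43 TPM in controls and 109 ± 13.1 TPM in α-/-;βin cells (log2 change 0.09, 95% interval -0.18 to 0.37, limma adjusted p = 0.850). POP7, of 9 RNase P and MRP subunits, measured 62.7 ± 6.40 TPM in controls and 69.2 ± 1.98 TPM in α-/-;βin cells (log2 change 0.15, 95% interval -0.09 to 0.38, limma adjusted p = 0.667). RPP25 of that list, named with its values known, measured 2.18, 2.07 and 2.15 TPM in controls and 0.889, 0.769 and 0.688 TPM in α-/-;βin cells and did not pass (adjusted p = 0.124), although it did with no filter and with no mean-variance trend (0.0129 to 0.347 over the alternatives).

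Receptors of the class 3 semaphorins gave 0 calls among 5, while their unadjusted p was under 0.05 for 4, in both directions. The groups did not overlap for these 4, which held for 17.1% of all tested genes. PLXNA2, a plexin and the most abundant of them, measured 48.7 ± 1.65 TPM in controls and 51.5 ± 2.74 TPM in α-/-;βin cells (log2 change 0.08, 95% interval -0.12 to 0.28, limma adjusted p = 0.813). PLXNA1 and NRP2, named with their values known like the other receptors below, had higher levels in every α-/-;βin library. PLXNA1, a plexin, measured 27.2, 27.8 and 28.1 TPM in controls and 37.3, 36.5 and 38.1 TPM in α-/-;βin cells (log2 change 0.42, 95% interval 0.23 to 0.61, limma adjusted p = 0.0548, 0.0173 to 0.235 over the alternatives). It passed when centred on the median gene, with a filter at 5 TPM, with no filter and with the replicate block. NRP2, the neuropilin that binds SEMA3F, measured 10.1, 10.9 and 9.69 TPM against 14.2, 15.8 and 14.2 TPM (log2 change 0.49, 95% interval 0.24 to 0.74, limma adjusted p = 0.0803, 0.0265 to 0.293 over the alternatives), and it passed with the replicate block. The other 2 were lower in every α-/-;βin library and did not pass. NRP1, a neuropilin, measured 33.7, 36.5 and 36.4 TPM in controls and 27.6, 31.7 and 31.002 TPM in α-/-;βin cells (log2 change -0.23, 95% interval -0.46 to -0.01, limma adjusted p = 0.390). PLXNA3, a plexin, measured 7.13, 7.82 and 10.4 TPM against 6.47, 6.06 and 5.09 TPM (log2 change -0.45, 95% interval -0.85 to -0.05, limma adjusted p = 0.355). UROD, of 7 haem synthesis enzymes other than ALAS1, measured 75.4 ± 10.99 TPM in controls and 74.3 ± 12.2 TPM in α-/-;βin cells (log2 change -0.02, 95% interval -0.39 to 0.34, limma adjusted p = 0.982). HSPB1, a heat shock protein phosphorylated downstream of p38 and MAPKAPK3, measured 242 ± 61.8 TPM in controls and 315 ± 74.3 TPM in α-/-;βin cells (log2 change 0.39, 95% interval -0.15 to 0.92, limma adjusted p = 0.598).

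**Figure D5:**
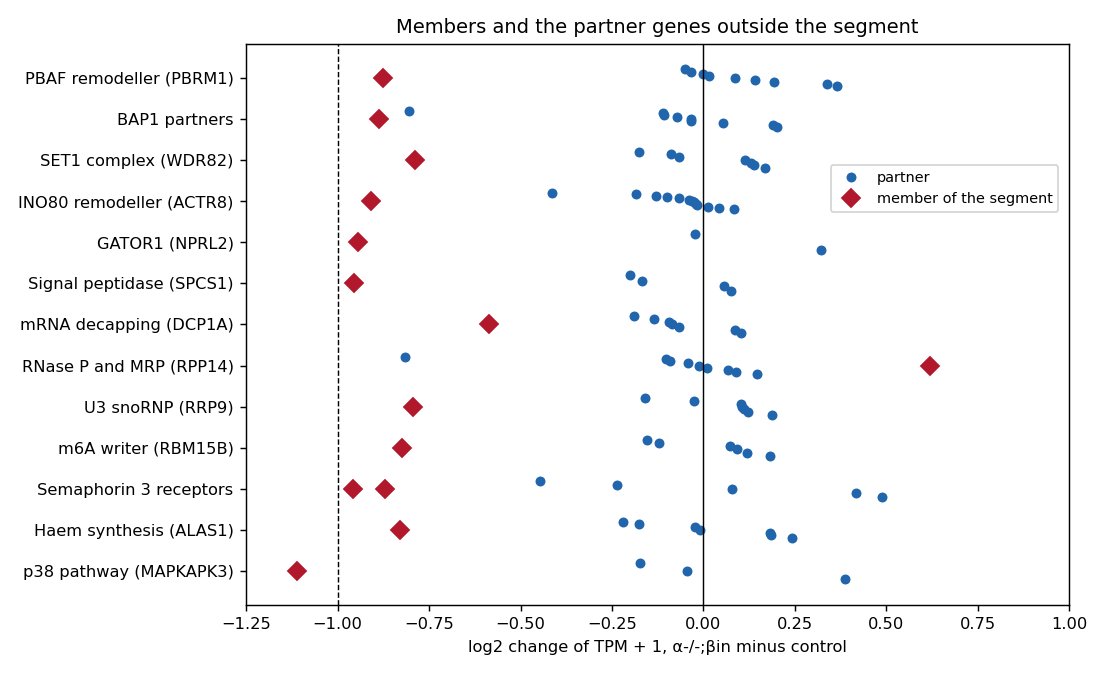
log2 change of TPM + 1 for 88 measured partner genes (blue) in 13 lists and for the members they work with (red diamonds). The dashed line marks -1, a fall of TPM + 1 to 50%. Partners cluster around 0, and FOXK1 (in the BAP1 list) and RPP25 (in the RNase P list) lie at -0.81 and -0.82. In TPM without the added 1, which shrinks changes of weakly expressed genes, they stood at 53.6% and 36.6% of control.

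Relatives of the members elsewhere in the genome did not change in a way that passed the test. Of 23 listed genes, 19 were measured, 0 were called in either direction, 5 had an unadjusted p under 0.05, and the median log2 change was -0.08. The groups did not overlap for 7 of the 19 (36.8%, against 17.1% of all tested genes), 6 of them lower, and of the 5 with an unadjusted p under 0.05 only GNAI1 was higher. TWF1, the relative of TWF2, measured 206 ± 6.55 TPM in controls and 195 ± 3.05 TPM in α-/-;βin cells (log2 change -0.08, 95% interval -0.25 to 0.09, limma adjusted p = 0.763). ARF5, in the same family as ARF4, measured 126 ± 18.8 TPM in controls and 128 ± 14.9 TPM in α-/-;βin cells (log2 change 0.03, 95% interval -0.30 to 0.36, limma adjusted p = 0.974). MAPKAPK2, the sister kinase of MAPKAPK3, measured 109.7 ± 4.15 TPM in controls and 107 ± 4.78 TPM in α-/-;βin cells (log2 change -0.04, 95% interval -0.23 to 0.15, limma adjusted p = 0.920). Their intervals exclude neither small rises nor small falls, and a rise as large as the fall of the member lay outside them.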

How the data were processed

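RNA was extracted from cell pellets, made into Illumina TruSeq libraries and read on a NextSeq, per the labels' protocols. The authors deposited TPM per gene symbol for 6 libraries, and each column summed to 1000000. Per the submitters' processing notes, hg19 was the build. No source used here names the aligner, quantifier or annotation. Control columns were matched by name and number, and the columns headed as the experiment were taken as the α-/-;βin group. The 12096 genes whose mean reached 1 TPM were compared on log2(TPM + 1) with limma 3.58.1 in R 4.3.3 (empirical Bayes, mean-variance trend, two-sided, Benjamini-Hochberg adjustment over all tested genes, threshold 0.05). The fit was tested on simulated data. The percentage of control is the ratio of mean TPM, with an SE propagated from both groups. Gene order and promoter windows came from RefSeq (GRCh38.p14). Members, roles, partner and related lists, and the tests were chosen with earlier results of these data known. Named genes were all members (those with tumour suppressor roles and the 3 highest and lowest ratios in full), per partner list those past the threshold or else the most abundant, the 3 most abundant related genes when none passed, the nearest gene on either side and the targeted genes. Alternatives were other pseudocounts, filters and scalings, no trend, a replicate block and leaving out each library.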

Additional observations from a re-analysis of the deposited data

How the results depend on the processing

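The median percentage of control of the members kept within the spread between libraries under every alternative run, including without HTD2 and RPP14 (53.1%, chosen after seeing the data). In every fit that tested 48 members, 47 lay below 0. The members were chosen from these same libraries, so their counts in the alternative fits carry no evidence of their own. The members' median log2 change was -0.90 with a pseudocount of 0.1, -0.87 with 0.5 and -0.88 to -0.78 with a library left out. Their mean level per α-/-;βin library was -0.92 and -0.86 with these pseudocounts, against -0.81. With no filter on low values 17 members were called lower, and with a library left out 9 to 20. Over all genes, 221 were called lower and 44 higher, and with a library left out 91 to 189 and 13 to 30. Partner calls were 0 to 1 lower with a library left out, 2 lower with no trend, and 1 higher when centred on the median gene, with a filter at 5 TPM or with no filter. With the replicate block, 597 genes were called lower and 284 higher. Among them were 36 members lower, 4 partners higher, and 1 related gene lower and 1 higher. Whether the replicate numbers pair the samples cannot be told from these values, with 3 libraries per group. Same-numbered libraries correlated at 0.246, 0.269 and -0.015 in their deviations from the group means, for replicates 1, 2 and 3. Control replicate 1 with α-/-;βin replicate 2 gave -0.238, and control replicate 2 with α-/-;βin replicate 1 gave -0.293. Control replicate 3 correlated best with α-/-;βin replicate 1 (0.0526). PIP4K2B missed the threshold without control replicate 3 (log2 change -1.14, and -1.27 to -1.04 over the fits with a library left out). The cause of these shifts was not tested; fewer libraries give a weaker test by construction. Depth is unknown, and members under 10 TPM in controls, RPP14 included, had the wider spread.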
